A study of Homo sapiens with 8 samples.

Results

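The genes described here lie around ABCC1, which encodes the drug efflux pump MRP1 and lies in band 16p13.11 on the short arm of human chromosome 16. They are all genes of the deposited expression table on chromosome 16 that start in the 3700000 bases from 15000000 on (GRCh38), leaving out symbols that begin with ABC. This gave 65 genes of the 27996 in the table. The window was chosen by the higher expression of its genes in HL60/ADR than in HL60, so the expression values below describe that choice and carry no test. HL60 is a human promyelocytic leukemia cell line, and HL60/ADR was derived from it by selection in stepwise rising Adriamycin (doxorubicin, an anthracycline) up to 0.5 μg/ml, with a drug-free week before RNA was taken. HL60/ADR and HL60 each gave 2 input and 2 IP libraries of poly(A) RNA, where IP stands for pull-down with an antibody against N6-methyladenosine (m6A). HL60/ADR is 1 selected line, and its libraries were assigned by title because their source and cell line labels read HL60. Only RNA was measured.

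Band 16p13.11 is built from single-copy genes set between blocks that were copied several times in the ape lineage. The copies carry NPIP genes (nuclear pore complex interacting proteins), pseudogenes of PKD1 (the polycystin 1 gene) and the NOMO genes, whose products sit in the membrane of the endoplasmic reticulum at the protein-conducting channel. Because the blocks are nearly identical, the band is known for recurrent deletions and duplications, and short reads from one copy can be credited to another. Among the single-copy genes, MYH11 encodes smooth muscle myosin and is the partner of CBFB in the inversion of chromosome 16 seen in acute myeloid leukemia, NDE1 binds dynein and LIS1 at the centrosome, and RRN3 recruits RNA polymerase I to ribosomal RNA genes.

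Expression was given as FPKM (mapped fragments scaled to the length of the gene's exons and to the size of the library), and a log2 fold change is that of FPKM + 1, HL60/ADR over HL60. In the 65 genes, 28 had a mean FPKM of 0.5 or more over the 4 input libraries and were tested with all other genes, and 33 stayed under 0.5 FPKM in every library. The study calls the libraries of a line biological duplicates, but neither it nor the labels say how the cultures were separated, so a p-value reflects only how far these libraries vary. Over all 13053 tested genes the median log2 fold change was -0.18. Shifting the libraries to equal medians brought this median to 0.04 and turned the split of called genes (a fold beyond 1 on the log2 scale in either direction, with a limma p below 0.05 after Benjamini-Hochberg adjustment) to 1659 higher and 1169 lower, against 1165 higher and 1798 lower without it. With quantile normalization the split was 1418 higher and 1354 lower. Of 8 promyelocyte markers, 7 reached 1 FPKM in every library, and their summed FPKM was 1352 to 1391 in HL60/ADR and 287 to 291 in HL60. CTSG, which encodes cathepsin G, had 795 and 819 FPKM in HL60/ADR and 5.57 and 7.87 FPKM in HL60. The summed FPKM of 3 T cell markers was 55.5 to 56.3 in HL60/ADR and 0.561 to 0.693 in HL60. CD3D made nearly all of it, with CD3E and CD3G under 1 FPKM in every library. The part of these markers in the values below was not tested.

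Reference sequence shows how these genes are arranged. MARF1 and NDE1 are read away from each other, and the 112 bases between their starts, chr16:15643155-15643266 (plus strand, GRCh38.p14, taken from the RefSeq promoter windows), are shown because they serve as the upstream stretch of both genes.
MARF1-NDE1: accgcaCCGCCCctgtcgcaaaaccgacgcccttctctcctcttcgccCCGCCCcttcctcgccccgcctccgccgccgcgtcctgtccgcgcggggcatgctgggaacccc
Capitals mark the 2 matches to GGGCGG, the GC box read by Sp1-type factors, which both lie on the minus strand as CCGCCC. On both strands, this motif occurs in the last 112 bases before the start of 33% of 35116 RefSeq promoters, and at least 2 times in 14.5%, so the matches describe the stretch and mark no site.

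The NPIPA copies show how alike the copies can be. Only bases before their RefSeq starts were compared, so the identity of the exons that reads come from was not measured. The next stretches are 100 of these bases, placed to hold the most differences. Capitals mark each position at which the copies of a set are not all the same.
NPIPA5: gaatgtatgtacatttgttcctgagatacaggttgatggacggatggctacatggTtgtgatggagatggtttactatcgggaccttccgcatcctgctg
NPIPA1: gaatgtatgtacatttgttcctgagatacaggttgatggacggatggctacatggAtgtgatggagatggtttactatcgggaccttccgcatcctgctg
NPIPA9: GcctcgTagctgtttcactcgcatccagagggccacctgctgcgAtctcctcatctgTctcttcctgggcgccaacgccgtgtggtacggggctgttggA
NPIPA6: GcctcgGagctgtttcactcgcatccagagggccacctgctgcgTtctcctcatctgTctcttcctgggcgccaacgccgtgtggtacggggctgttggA
NPIPA8: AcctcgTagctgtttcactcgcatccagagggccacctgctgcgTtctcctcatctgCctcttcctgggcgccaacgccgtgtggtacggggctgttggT
They lie at chr16:15378295-15378394 (minus strand, NPIPA5), chr16:14937343-14937442 (plus, NPIPA1, before the window), chr16:18376967-18377066 (minus, NPIPA9), chr16:16331650-16331749 (plus, NPIPA6, a RefSeq name for a gene inside the deposited row ENSG00000183889) and chr16:18336865-18336964 (minus, NPIPA8). Over the bases before the start that could be aligned, NPIPA1 matched NPIPA5 at 249 of 250 (99.6%), NPIPA6 matched NPIPA9 at 248 of 250 (99.2%), and NPIPA8 matched NPIPA9 at 244 of 249 (98%).

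The window also holds 11 microRNA genes, all with a mature sequence in RefSeq. Those of miR-484, which lies just inside NDE1, and of miR-3179, which is repeated with the NOMO blocks, are shown with the seed (bases 2 to 8) in capitals.
hsa-miR-484: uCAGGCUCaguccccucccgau
hsa-miR-3179: aGAAGGGGugaaauuuaaacgu
miR-484 lies at chr16:15643301-15643322. The miR-3179 sequence is the same in its 4 copies on chromosome 16, of which 3 are in the window. The input libraries were made from poly(A) RNA and hold no measure of mature microRNAs. None of the 11 genes passed the filter, and the highest value of any was 0.343 FPKM, for MIR3179-4.

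Of the 28 tested genes, 16 passed the limits as higher in HL60/ADR and 2 as lower, where 8.93% and 13.8% of all tested genes did so. As the genes were chosen on this contrast, nothing is read from these counts. Their median log2 fold change was 1.32 (quartiles 0.72 and 1.97), against -0.18 over all tested genes. The levels of HL60/ADR lay above those of HL60 without overlap in 22 genes (36.0% of all tested genes) and below them in 3 (54.4%), and overlapped in PKD1P6, CEP20 and NPIPA8.

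**Figure D1:**
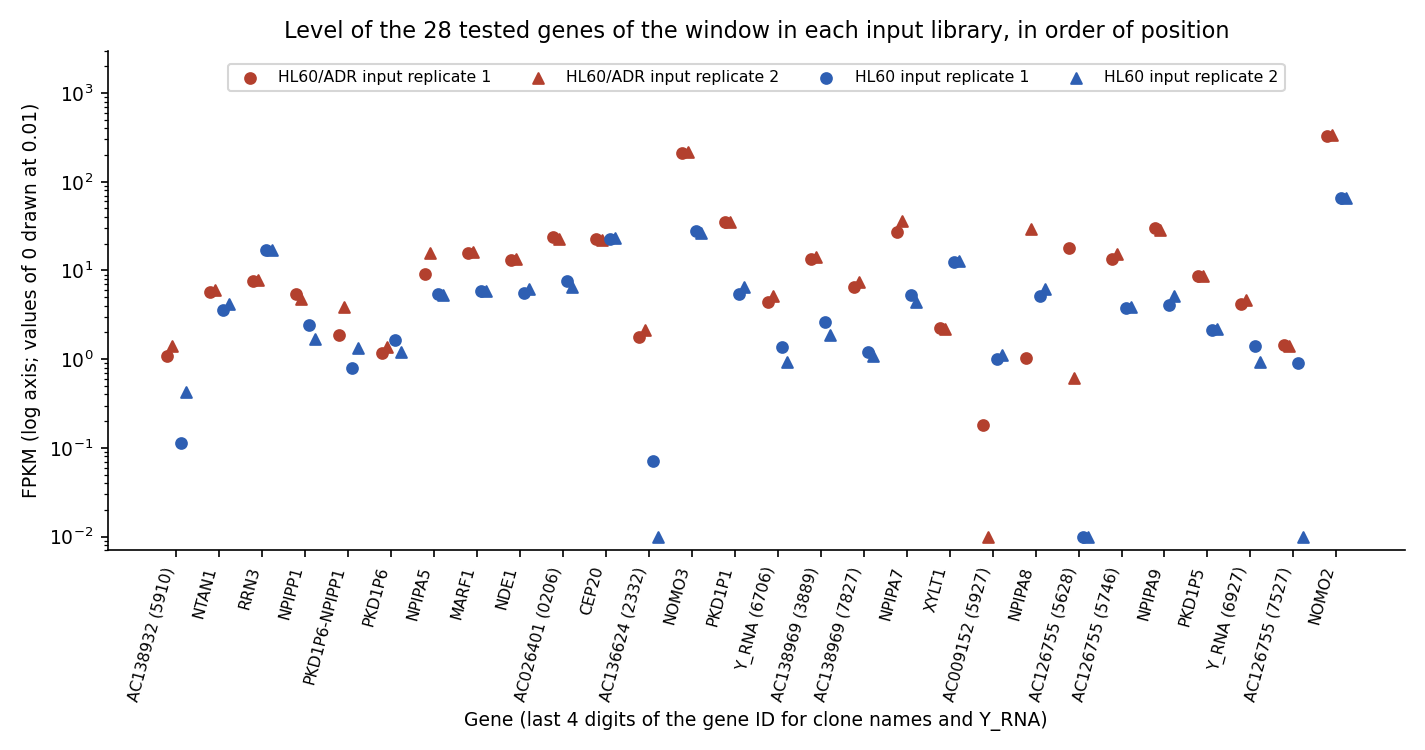
FPKM (log axis, values of 0 drawn at 0.01) of the 28 tested genes in each of the 4 input libraries, in order of position, with HL60/ADR in red and HL60 in blue. NOMO3 and NOMO2 stand highest in both HL60/ADR libraries, the lines overlap at CEP20, RRN3 and XYLT1 are lower in HL60/ADR, and the NPIPA8 symbols of HL60/ADR lie far apart.

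MARF1 and NDE1 were both higher in HL60/ADR. MARF1, an RNA-binding protein with a nuclease domain that controls transcripts in mouse oocytes, had 15.6 and 16.3 FPKM in HL60/ADR and 5.81 and 5.9 FPKM in HL60. NDE1 had 13.2 and 13.3 FPKM in HL60/ADR and 5.54 and 6.22 FPKM in HL60. The libraries of each line lay close together, and the log2 fold changes were 1.30 (SE 0.04) for MARF1 and 1.05 (SE 0.06) for NDE1, which was at 0.98 without HL60 replicate 1. AC026401 (ENSG00000280206), a transcript of unknown function on the same strand within NDE1, had 23.6 and 22.5 FPKM in HL60/ADR and 7.57 and 6.51 FPKM in HL60, and reads of the NDE1 gene and of this row cannot be told apart.

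The other single-copy genes were less raised or lower. CEP20, a centrosomal protein needed for cilia, had 22.8 and 22.3 FPKM in HL60/ADR and 22.5 and 23.2 FPKM in HL60, a log2 fold change of -0.01 (SE 0.03) that became 0.20 with equal medians and 0.18 with quantile normalization. Its end is 61 kb from the start of ABCC1. NTAN1, an amidase that converts N-terminal asparagine of proteins, had 5.74 and 5.95 FPKM in HL60/ADR and 3.63 and 4.2 FPKM in HL60, a log2 fold change of 0.48 (SE 0.07). RRN3 had 7.57 and 7.78 FPKM in HL60/ADR and 17.1 and 16.8 FPKM in HL60 (log2 fold change -1.05, SE 0.03), and it no longer passed the limit of 1 when libraries were shifted to equal medians or quantile normalized. XYLT1, the xylosyltransferase that starts glycosaminoglycan chains on proteoglycans, had the lowest fold change of the 28 on the log2(FPKM + 1) scale, with 2.24 and 2.18 FPKM in HL60/ADR and 12.6 and 12.9 FPKM in HL60, or a log2 fold change of -2.10 (SE 0.04). AC009152 (ENSG00000275927), a transcript inside an XYLT1 intron, was at 0.181 and 0 FPKM in HL60/ADR and at 0.995 and 1.12 FPKM in HL60, and with a pseudocount of 0.1 FPKM its log2 fold change was -2.79, below that of XYLT1 (-2.47).

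MYH11 and BMERB1 were nearly silent in both lines. MYH11 had 0.0199 and 0.0111 FPKM in HL60/ADR and 0.0151 and 0.00849 FPKM in HL60. BMERB1, named for its bMERB domain, had 0.0273 and 0.0109 FPKM in HL60/ADR and was listed at 0 in both HL60 libraries. These genes lie between NPIPA5 and CEP20, next to MARF1 and NDE1. The 37 untested genes also included clone-named transcripts, small RNA genes and the ribosomal protein pseudogenes RPL15P20 and RPL7P47.

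The duplicated families gave the highest levels. NOMO3 had 209 and 214 FPKM in HL60/ADR and 27.7 and 26.5 FPKM in HL60, a ratio of 7.81 and a log2 fold change of 2.92 (SE 0.03). NOMO2 had 328 and 338 FPKM in HL60/ADR and 65 and 65.6 FPKM in HL60, a ratio of 5.1. NOMO1, which starts before the window, had 162 and 164 FPKM in HL60/ADR and 54.4 and 55.9 FPKM in HL60, a ratio of 2.95. All 3 copies were thus higher in HL60/ADR in both of its libraries, but by unequal ratios. Summed, the NOMO genes reached 699 and 716 FPKM in HL60/ADR and 147 and 148 FPKM in HL60. NOMO3 made 29.9% of the sum in both HL60/ADR libraries, against 18.8% and 17.9% in the HL60 libraries. NOMO1 made 23.1% and 22.9% in HL60/ADR and 37% and 37.8% in HL60. How reads of near-identical copies were divided is not stated in the sources used here, so the values of single copies are uncertain and the sum is the firmer quantity.

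Among the other copies of the window, 4 of 5 PKD1 pseudogenes and 3 of 4 NPIPA symbols passed the limits as higher. PKD1P1 had 35.3 and 35.6 FPKM in HL60/ADR and 5.39 and 6.58 FPKM in HL60, and PKD1P5 had 8.68 and 8.59 FPKM in HL60/ADR and 2.15 and 2.21 FPKM in HL60. AC138969 (ENSG00000227827, annotated as a PKD1 pseudogene) and AC126755 (ENSG00000205746, another) had log2 fold changes of 1.89 and 1.66. PKD1P6 was the exception, with 1.18 and 1.38 FPKM in HL60/ADR and 1.63 and 1.22 FPKM in HL60, where the lines overlap. Its sign turned when libraries were shifted to equal medians (log2 fold change 0.13, against -0.09). The 5 pseudogenes together made 65.1 and 68.2 FPKM in HL60/ADR and 14.1 and 15 FPKM in HL60. PKD1 itself, which lies elsewhere on chromosome 16, had 3.03 and 3.07 FPKM in HL60/ADR and 4.18 and 4.2 FPKM in HL60.

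NPIPA9 had 30 and 28.3 FPKM in HL60/ADR and 4.05 and 5.22 FPKM in HL60, and NPIPA7 had 26.9 and 36.4 FPKM in HL60/ADR and 5.27 and 4.46 FPKM in HL60. NPIPA5 was less raised, at 9.06 and 15.7 FPKM in HL60/ADR and 5.37 and 5.33 FPKM in HL60. AC138969 (ENSG00000183889, annotated as an NPIP gene) had a log2 fold change of 2.21. The pseudogene NPIPP1 had 5.42 and 4.79 FPKM in HL60/ADR and 2.45 and 1.71 FPKM in HL60, and its readthrough with PKD1P6 had 1.89 and 3.85 FPKM in HL60/ADR and 0.789 and 1.32 FPKM in HL60. NPIPA8 was at 1.02 and 29.7 FPKM in the HL60/ADR libraries and at 5.22 and 6.22 FPKM in HL60. AC126755 (ENSG00000285628), which overlaps NPIPA8 on the same strand, showed the reverse, at 18.1 and 0.613 FPKM in HL60/ADR and listed at 0 in both HL60 libraries. The 2 rows exchange their level between the HL60/ADR libraries, and their sum, 19.1 and 30.3 FPKM in HL60/ADR and 5.22 and 6.22 FPKM in HL60, separates the lines.

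**Figure D2:**
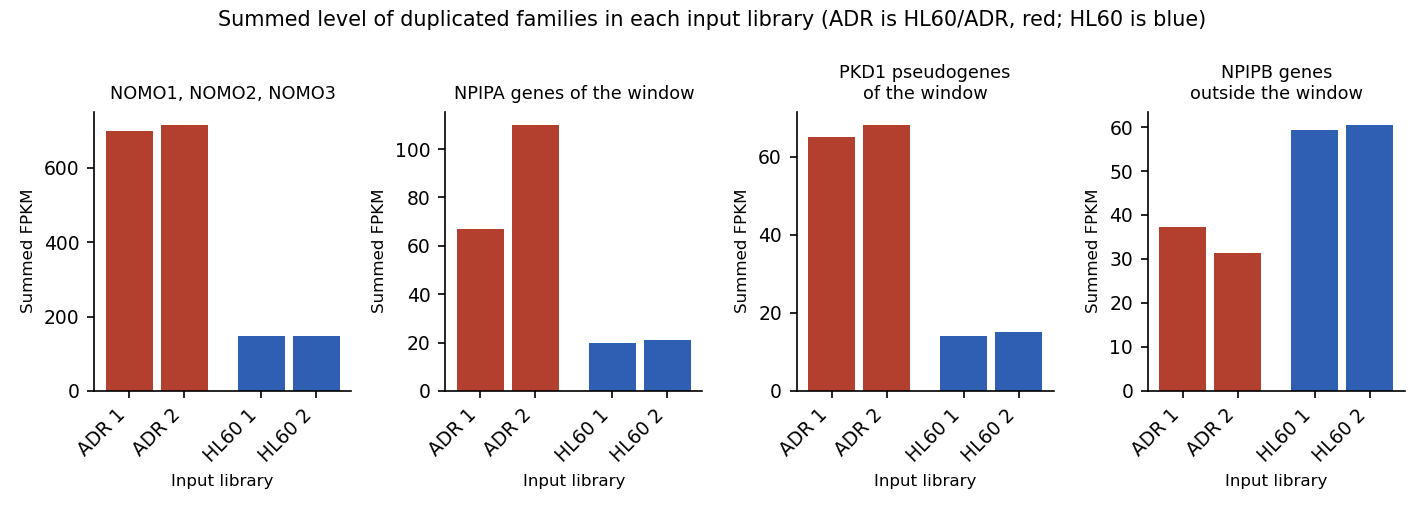
Summed FPKM of the 3 NOMO genes, of the 4 NPIPA symbols of the window, of its 5 PKD1 pseudogenes and of the 14 NPIPB genes elsewhere on chromosome 16, in each input library (bars from 0, HL60/ADR red, HL60 blue). The first 3 families are more than 4-fold higher in mean in HL60/ADR, and the NPIPB sum is lower in it, although none of its genes was called.

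The summed means of HL60/ADR over HL60 gave a ratio of 4.79 for NOMO, 4.31 for NPIPA and 4.58 for the PKD1 pseudogenes. The NPIPA sum differed between the HL60/ADR libraries, at 67 and 110 FPKM. It left out ENSG00000285628 and the clone-named NPIP row ENSG00000183889, while the PKD1 sum holds clone-named rows. The 14 NPIPB genes, a related branch of the NPIP family that lies outside the window on the same chromosome, were not called in either direction. Of the 11 that were tested, 10 were below 0 and NPIPB15 was above it, at 0.70. Their sums were lower, at 37.2 and 31.4 FPKM in HL60/ADR and 59.3 and 60.5 FPKM in HL60. The sums add genes of different length and serve to compare the lines, not the families.

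Of the small transcripts of the blocks, the tested Y RNA copies passed the limits and the others did not. Of these Y RNA copies, ENSG00000206706 had 4.42 and 5.16 FPKM in HL60/ADR and 1.36 and 0.94 FPKM in HL60. ENSG00000206927 had 4.24 and 4.65 FPKM in HL60/ADR and 1.42 and 0.94 FPKM in HL60. A further Y RNA row inside PKD1P6, ENSG00000207294, was not tested, at 0.245 and 0.549 FPKM in HL60/ADR and 0.0857 and 0 FPKM in HL60. AC126755 (ENSG00000257527), a row with the description of miR-3179-3, had 1.43 and 1.39 FPKM in HL60/ADR and 0.915 and 0 FPKM in HL60. AC138932 (ENSG00000275910), antisense to PDXDC1, had 1.09 and 1.39 FPKM in HL60/ADR and 0.115 and 0.43 FPKM in HL60. Whether counting used strand is not stated in the sources used here, so antisense rows cannot be told apart from their partners.

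ABCC1 itself had 278 and 283 FPKM in HL60/ADR and 29.3 FPKM in both HL60 libraries, a ratio of 9.58. ABCC6, its neighbour and a transporter of liver and kidney, had 0.587 and 0.634 FPKM in HL60/ADR and was listed at 0 in HL60. AC136624 (ENSG00000262332), which overlaps the start of ABCC6 on the other strand, followed with 1.76 and 2.12 FPKM in HL60/ADR and 0.0712 and 0 FPKM in HL60.

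**Figure D3:**
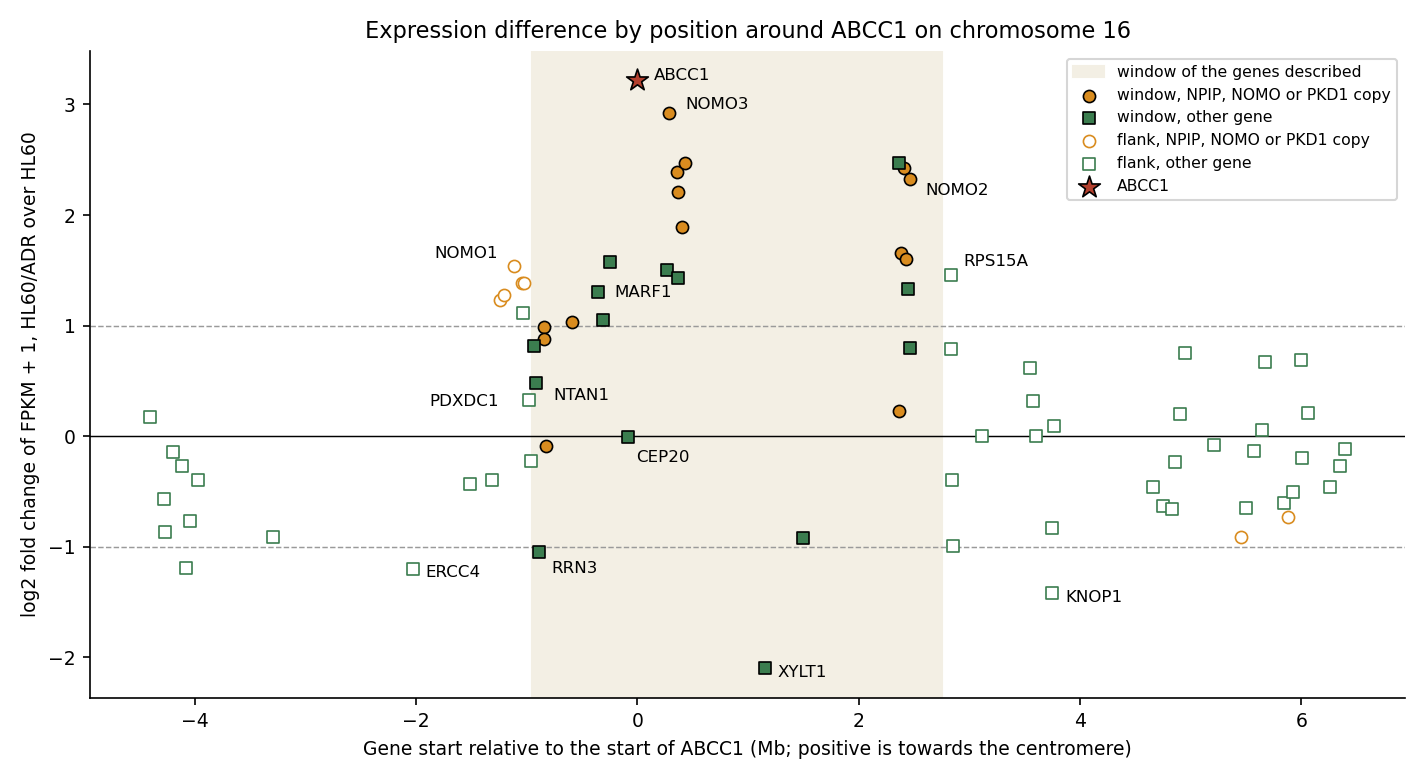
Log2 fold change of FPKM + 1, HL60/ADR over HL60, of each tested gene by its start relative to that of ABCC1 (Mb), for the window (shaded, filled symbols) and the flanks on both sides (open symbols). Dashed lines mark 1 and -1. Raised genes form clusters that hold the NPIP, NOMO and PKD1 copies, while RRN3 (-1.05) and XYLT1 (-2.10) lie below 0 and CEP20 lies at -0.01 (0.20 with equal medians).

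By position, the rise came in pieces. Before the window, none of the 12 tested genes from LITAF (start 11547722) to BFAR, an apoptosis regulator, had a log2 fold change over 1, and their median was -0.50. The first piece began at NPIPA3 (start 14708944), with 3.07 and 3.11 FPKM in HL60/ADR and 0.677 and 0.8 FPKM in HL60. All 6 tested genes from NPIPA3 to NPIPA1, NOMO1 among them, were over 1, with a median of 1.33. They were NPIP, NOMO or PKD1 copies and a Y RNA inside one of these. Reads of near-identical copies elsewhere can be credited to them, so how far the rise belongs to this place is uncertain and was not tested. The piece ended before PDXDC1. None of the 8 tested genes from PDXDC1 to PKD1P6 was over 1 on the log2(FPKM + 1) scale, with a median of 0.41. This gap was not firm for its lowly expressed copies. NPIPP1, PKD1P6-NPIPP1 and AC138932 (ENSG00000275910), at 0.99, 0.88 and 0.82, were over 1 with a pseudocount of 0.1 FPKM (1.27, 1.32 and 1.98) and with equal medians (1.21, 1.09 and 1.03), while PDXDC1, NTAN1, RRN3, PKD1P6 and AC138932 (ENSG00000261819) stayed under it in both.

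The next piece held ABCC1. Of the 13 tested genes from NPIPA5 (start 15363628) to NPIPA7 (end 16393954), a span of 1030 kb, 12 were over 1, and CEP20 was the exception. Its start at NPIPA5 (1.03, SE 0.25) rests on 1 library, since NPIPA5 was at 0.66 without HL60/ADR replicate 2. With no gene under 1 allowed, the run around ABCC1 was 8 genes and 444 kb long, from ABCC1 (start 15949577) to NPIPA7. CEP20, NDE1 and AC026401 were the tested genes next to it on the one side and XYLT1, AC009152 and NPIPA8 on the other. The median over the 8 genes was 2.30. With the NPIP, NOMO and PKD1 copies left out by symbol or description, the run held 3 genes, ABCC1 and the rows AC136624 and Y RNA. This Y RNA (ENSG00000206706) lies inside PKD1P1, so the shorter run is not free of copies. AC136624 was at 1.76 and 2.12 FPKM in HL60/ADR and at 0.0712 and 0 FPKM in HL60.

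XYLT1 stood alone after it, with 708 kb between the end of NPIPA7 and its start and 847 kb between its end and NPIPA8, and no tested gene other than the transcript in its intron. The last piece ran from NPIPA8 over NOMO2 to RPS15A, a ribosomal protein gene just outside the window, and 7 of its 9 tested genes were over 1. NPIPA8 itself was at 0.23, and ENSG00000285628, counted as over 1, was at 0.69 without HL60/ADR replicate 1. Apart from RPS15A, the genes over 1 were NPIP, NOMO or PKD1 copies or rows that overlap one. How far their rise belongs to this place is therefore also uncertain. RPS15A had 150 and 151 FPKM in HL60/ADR and 53.1 and 54.8 FPKM in HL60. The study reports that the genes it found up-regulated in HL60/ADR were enriched in the ribosome pathway. Whether the rise of RPS15A belongs to its place was not tested. AC138811 (ENSG00000260342), the tested transcript beside RPS15A, had 6.26 and 10.2 FPKM in HL60/ADR and 26.2 and 0 FPKM in HL60, where the lines overlap. From the next single-copy gene, ARL6IP1 (start 18791669), onward, none of 30 tested genes that started within 3700000 bases of the window was over 1 and their median was -0.22. Among all tested genes of chromosome 16 outside the window, 45 of 633 were called higher and 95 lower, with a median of -0.32.

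The limits of the window fall inside this pattern. Just outside its start lay PDXDC1, with 21 and 21.1 FPKM in HL60/ADR and 16.6 and 16.5 FPKM in HL60, and AC138932 (ENSG00000261819), with 0.896 and 0.9 FPKM in HL60/ADR and 1.21 FPKM in both HL60 libraries. The first gene inside was MIR1972-1, at 0 and 0.225 FPKM in HL60/ADR and 0 in HL60. The last inside was AC136618 (ENSG00000260550), at 0.253 and 0.023 FPKM in HL60/ADR and 0 in HL60, and the first gene outside was RPS15A. So the window left out NOMO1, NPIPA1 to NPIPA3, the PKD1 pseudogene AC138932 (ENSG00000183458), a Y RNA inside it (ENSG00000207425) and RPS15A. Their log2 fold changes ran from 1.11 (the Y RNA) to 1.54 (NOMO1).

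m6A peaks come from 1 list per line, made by the authors from both replicates together, so they have no replicate spread and no test. The HL60/ADR list gave 53 of its 38834 peaks to these genes and the HL60 list 43 of 40550, in 21 genes each. Peaks were in both lists for 15 genes, in HL60/ADR alone for 6, in HL60 alone for 6 and in neither for 38, of which 8 were tested for expression. The median fold enrichment (IP over input) of the peaks was 6.21 in HL60/ADR and 5.21 in HL60, beside 5.32 and 3.86 over all peaks of each list. Sorted by region, 24 lay in 3′ UTRs, 25 in exons and 4 in 5′ UTRs in HL60/ADR, against 18, 22 and 3 in HL60.

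**Figure D4:**
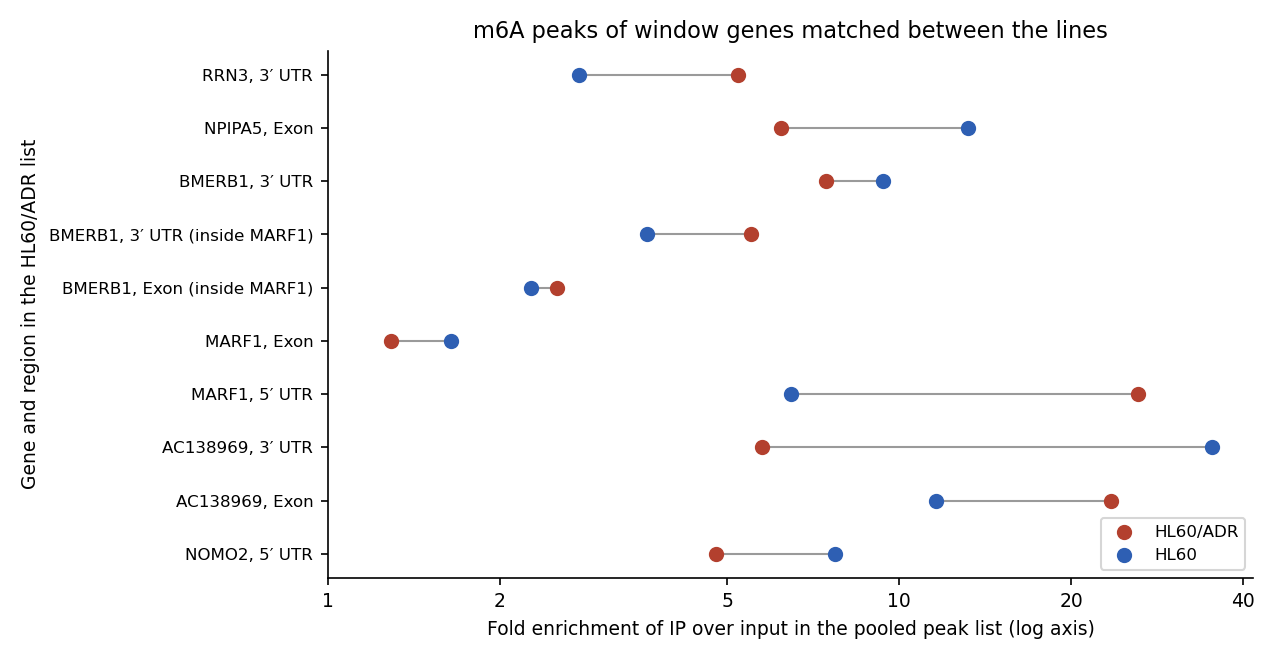
Fold enrichment (log axis) in HL60/ADR (red) and HL60 (blue) of the 10 peaks of these genes that overlap 1 to 1 between the lists, in order of position. Of the 10, 5 are higher in HL60/ADR, with the widest gaps at the MARF1 5′ UTR (26.2 and 6.46) and the AC138969 3′ UTR (5.75 and 35.3).

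Of the peaks, 10 overlapped exactly 1 peak of the other list. Their fold enrichment was over 2-fold higher in HL60/ADR in 2 (18.7% of all 15434 such pairs) and over 2-fold lower in 2 (4.77%). The median ratio was 0.951, against 1.27 over all pairs, but over the 13 pairs, not all the same ones, in which at least 50% of both peaks was shared it was 1.34, against 1.32 over all such pairs, so no direction can be given for the set. The largest rise was at the 5′ end of MARF1 (chr16:15639158-15643154 in the HL60/ADR list), with a fold enrichment of 26.2 in HL60/ADR and 6.46 in HL60. RRN3, whose RNA was lower, had a 3′ UTR peak of 5.22 in HL60/ADR and 2.75 in HL60. The largest fall was at the 3′ end of AC138969 (ENSG00000183889), with 5.75 in HL60/ADR and 35.3 in HL60. The peak of 35.3 had the weaker support from the peak caller, a p-value of 8.1e-10 in HL60, where the input RNA was lower, while that of the HL60/ADR peak was 3.2e-88.

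Most of the following peaks had no single partner in the other list. NDE1 was named for 10 peaks in HL60/ADR and 6 in HL60, but in each list several of these had a false discovery rate above 0.05. Some in each list were annotated to exons of MYH11, which overlaps NDE1 on the other strand. The 3′ UTR peaks of highest fold enrichment named NDE1 were 13.3 in HL60/ADR and 9.93 in HL60, with p-values from the peak caller of 0.00059 and 0.0071. The 3′ UTR peak of NDE1 with the lowest p-value, 1e-194, had a fold enrichment of 9.02 in HL60/ADR. Within its bounds, HL60 had a peak of 8.3 that carries the name MYH11. AC026401 (ENSG00000280206) had 7.56 in HL60/ADR and 5.56 in HL60 over the same 706 bases. XYLT1 had 3′ UTR peaks of 10.4 and 3.12 in HL60/ADR and of 5.21 in HL60, while the peak that reaches its exon 3 was 2.73 in HL60/ADR and 7.5 in HL60. The peaks annotated to its exon 2 went the other way, with 11.5 in HL60/ADR and 3.86 in HL60. CEP20 had 1 weak peak of 1.63 in HL60/ADR alone. NTAN1 had 3′ UTR peaks of 1.85, 1.58 and 4.98 in HL60/ADR and of 2.46 and 2.15 in HL60. All but that of 4.98 are near copies of the same interval, which also lies within PDXDC1.

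In the duplicated genes, NPIPA7 had a 3′ UTR peak of 13.1 in HL60/ADR and peaks of 15.5 and 5.04 in HL60. NPIPA5 had 6.21 in HL60/ADR and 13.2 in HL60, and NPIPA8 had 6.12 and 7.15 in HL60/ADR and 2.92 and 3.5 in HL60. NPIPA9, with 5.0 and 5.11, NPIPP1, with 4.43 and 4.23, and AC126755 (ENSG00000205746), with up to 12.4, had peaks in HL60/ADR alone. AC138969 (ENSG00000227827) had a peak of 23.5 in HL60/ADR, matched by one of 11.6 in HL60 that carries the name MIR6511A3. NOMO2 had a 5′ UTR peak of 4.78 in HL60/ADR and 7.73 in HL60, and NOMO3 had a single peak of 4.23, in HL60. AC136624 had 1 peak of 7.09 in HL60/ADR. Some of these are near copies of one interval listed under overlapping gene models, and a read that fits several copies can make a peak in any of them.

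Several peaks carried the name of a gene without RNA. Of the 53 peaks in HL60/ADR, 6 were named after genes under 0.5 FPKM, and 13 of the 43 in HL60. The BMERB1 peak of 5.51 in HL60/ADR and 3.62 in HL60 lies at chr16:15594387-15595525, inside MARF1. The MYH11 peaks of 8.87 in HL60/ADR and of 8.3 and 8.94 in HL60 overlap the end of NDE1, as do those of AF001548 (ENSG00000263335), of 9.46 and 16 in HL60/ADR and 4.07 in HL60. A BMERB1 peak of 7.43 in HL60/ADR and 9.38 in HL60 and MYH11 peaks of 6.62 and 9.93 in HL60 lay in no tested gene. AC139256, which lies within PDXDC1, had 5.52 in HL60. ABCC6 was listed at 0 FPKM in HL60 and still had HL60 peaks of 2.48 and 7.73.

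Genes outside the window that work with its genes were compared in the same fit. They were listed by function and not by position, but with earlier results of these data known. Those named below were picked mainly for the largest rise or fall in their list, so their p-values describe picked genes. Of the 45 tested genes in 6 lists, 3 were called higher (8.93% of all genes were) and 12 lower (13.8%). With equal medians 9 were called lower, and also with quantile normalization, as CENPF, POLR1E and B3GAT3 no longer passed. Of the RNA polymerase I partners of RRN3, 7 of 14 were called lower and 1 higher, with a median log2 fold change of -0.99, against -0.18 over all genes. The largest fall was that of CD3EAP, a subunit of RNA polymerase I, which had 0.783 and 0.727 FPKM in HL60/ADR and 10.1 and 10.4 FPKM in HL60 (log2 fold change -2.68, SE 0.05, limma adjusted p = 1.23e-05). POLR1A, its largest subunit, had 3.19 and 2.91 FPKM in HL60/ADR and 15.7 and 16 FPKM in HL60 (limma adjusted p = 1.91e-05). TAF1D, of the promoter selectivity factor SL1, rose, with 27.7 and 27.1 FPKM in HL60/ADR and 11.1 and 11.9 FPKM in HL60 (log2 fold change 1.19, limma adjusted p = 4.22e-05).

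**Figure D5:**
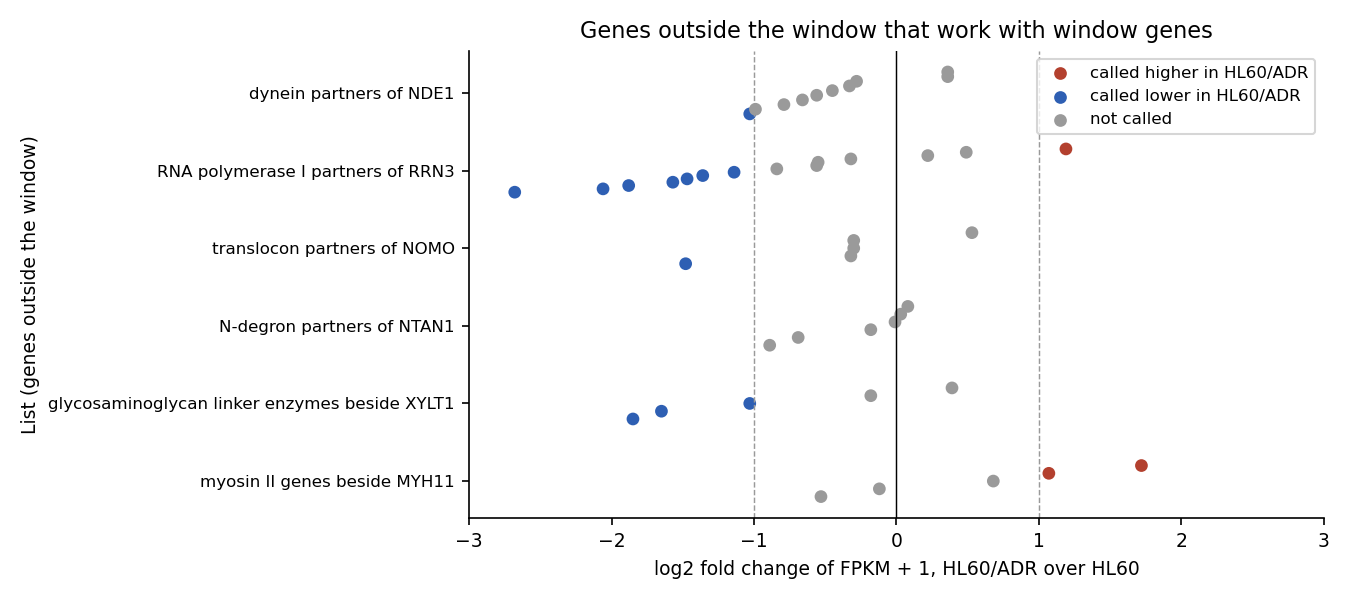
Log2 fold change of FPKM + 1, HL60/ADR over HL60, of 45 tested genes outside the window in 6 lists (rows), red where called higher, blue where called lower and grey where not called. The RNA polymerase I and glycosaminoglycan rows hold 10 of the 12 genes called lower.

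Beside XYLT1, 3 of 5 enzymes that build the same glycosaminoglycan linker were called lower (median -1.03), and 2 of 5 with equal medians, with quantile normalization or without HL60/ADR replicate 1, where B3GAT3 no longer passed. FAM20B, the xylose kinase, had 3.64 and 3.82 FPKM in HL60/ADR and 16.5 and 15.6 FPKM in HL60 (log2 fold change -1.85, limma adjusted p = 1.93e-05), while XYLT2, the other xylosyltransferase, had 6.42 and 6.49 FPKM in HL60/ADR and 4.92 and 4.48 FPKM in HL60 (0.39). Among 5 translocon partners of NOMO, NCLN, the nicalin that binds NOMO directly, was the 1 called, with 13.1 and 14.5 FPKM in HL60/ADR and 39.3 and 41.4 FPKM in HL60 (log2 fold change -1.48, limma adjusted p = 5.12e-05). WDR83OS, also known as Asterix, was at 28.8 and 34.3 FPKM in HL60/ADR and 18.2 and 25.2 FPKM in HL60 (0.53).

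Of 10 dynein partners of NDE1, only CENPF was called, lower, with 8.92 and 8.58 FPKM in HL60/ADR and 18.7 and 18.9 FPKM in HL60 (log2 fold change -1.03, limma adjusted p = 3.25e-05), and the median was -0.51. CENPF was not called with equal medians, with quantile normalization or without HL60/ADR replicate 2. NDEL1, the paralog of NDE1, had a log2 fold change of 0.36, as did DYNLRB1. None of 6 N-degron partners of NTAN1 was called, from UBR1 at -0.89 to ATE1 at 0.08. Of 5 tested myosin II genes beside the silent MYH11, the light chains MYL6 and MYL12A were called higher, MYL12A not with quantile normalization. MYL6 had 157 and 158 FPKM in HL60/ADR and 47.4 and 47.2 FPKM in HL60 (1.72), and MYH9, the non-muscle heavy chain, had 105 and 108 FPKM in HL60/ADR and 154 and 156 FPKM in HL60 (-0.53).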

How the data were processed

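The authors cleaned reads with fastp, aligned them to GRCh38 (Ensembl release 101) with HISAT2 and computed the deposited FPKM of each gene and input library with StringTie. They called peaks with exomePeak from the pooled replicates of each line and annotated them with ChIPseeker. In the deposited lists each peak has a fold enrichment (a ratio of IP to input) and a p-value from exomePeak. Further deposited columns, treated as scores, hold log10-transformed p-values and false discovery rates. Raw counts and single IP libraries were not analysed here. The study states the reads of each library, but FPKM does not give the number of reads behind a gene's value. Versions of these programs are not given in the sources used here.

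The 4 input libraries were fitted by line alone with limma 3.58.1 (R 4.3.3, two-sided, trended variance), using log2(FPKM + 1) of the 13053 genes whose mean reached 0.5 FPKM, and the script was tested on simulated data. Flanks were the 3700000 bases on each side of the window. Other pseudocounts, filters, scalings, peak limits and left-out libraries were tried. Peaks were matched with bedtools 2.31.1 by at least 1 shared base, using Python 3.11.15, pandas 2.3.3, numpy 2.4.6 and matplotlib 3.10.9. Named are genes of the window that were tested or have a peak of 4 or more, ABCC1, ABCC6, 3 tested genes beside each end of the run, and partner genes with the largest rise and fall in each list. Other names were chosen after their values were seen. The window, its genes and the lists were chosen with earlier results of these data known. Same-numbered libraries of the lines did not deviate together (r = 0.0433 over 13053 genes), so numbers were not taken as pairs.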

Additional observations from a re-analysis of the deposited data

How the results depend on the processing

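No gene of the window that was called changed sign under the alternatives run. A replicate block left 16 genes of the window called higher and 2 lower. Leaving out 1 library gave 16 to 18 higher, 2 to 3 lower, a median of 1.23 to 1.39, 3 to 3 partner genes higher and 11 to 13 lower, a run of 8 to 8 genes, 6 to 6 raised genes before the window and 1 to 2 after it. Without HL60/ADR replicate 1, ENSG00000285628 was at 0.69 (2.47 with all) and NPIPA8 at 2.19 (0.23 with all, -1.73 without HL60/ADR replicate 2). ENSG00000257527 was at 0.33 (0.80 with all) without HL60 replicate 2. NPIPA5 lost its call without HL60/ADR replicate 2 (0.66), without either HL60 library and with no filter, NDE1 without HL60 replicate 1 (0.98), and AC136624 at a mean of 1 FPKM, where it was not tested. The median of 1.32 became 1.86 and 1.47 with pseudocounts of 0.1 and 0.5 FPKM, 1.53 with equal medians, 1.5 with quantile normalization and 0.15 with no filter, which admits the silent genes. Both normalizations left 1 gene of the window called lower and 9 partner genes, and a pseudocount of 0.1 gave 3 raised genes after the window. The run of 8 genes became 1 with no filter, 13 with 1 gene under the limit allowed and 3 without the duplicated families, 1 of them the Y RNA inside PKD1P1. At a fold enrichment of 4 or more and a false discovery rate of at most 1e-05, 24 of 53 peaks stayed in HL60/ADR and 11 of 43 in HL60. The share over all peaks at these limits was not computed, and the genes were chosen for higher RNA in HL60/ADR. No difference in m6A is therefore read from these counts. At the same limits in both lists the median ratio of matched peaks was 2 (5 pairs, 1.5 over all pairs), against 0.951. It was 1.34 with at least 50% shared (1.32 over all pairs). FPKM gives no read count per gene, and 2 libraries per line limit the spread that can be seen.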
